A study of Homo sapiens with 12 samples.

Results

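The genes described here are 41 classical type I interferon-stimulated genes and their regulators, taken by symbol from a table of 56609 gene symbols. All 41 symbols were found. A filter on low counts kept 37 of them among the 21698 genes tested, and left out IFI27, IFI44L, OASL and RSAD2. RNA was sequenced from A375, an established human melanoma cell line, in 4 groups of 3 libraries. The groups were wild-type cells with DMSO (the solvent control), wild-type cells with 500 nM JQ1, MAPKAPK2-knockout cells with DMSO, and MAPKAPK2-knockout cells with 500 nM JQ1, each for 48 h. JQ1 is an inhibitor of the BET bromodomain proteins, which bind acetylated chromatin, and MAPKAPK2 (MK2) is a protein kinase downstream of p38. The study asked how loss of MAPKAPK2, made with CRISPR/Cas9, changes the answer of these cells to BET inhibition. The labels do not say whether the knockout is a clone or a pool, and give no added interferon in any group. Nor do they say whether replicates were separate cultures, so p-values measure the spread between these libraries, which may be technical.

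Type I interferons are secreted proteins that bind the receptor pair IFNAR1 and IFNAR2, whose kinases JAK1 and TYK2 phosphorylate STAT proteins. STAT2 with IRF9 is part of a complex that binds the interferon-stimulated response element (ISRE) in front of antiviral genes. Sensors of foreign nucleic acid, among them RIG-I (DDX58), MDA5 (IFIH1), TLR3 and cGAS with STING (TMEM173), start interferon production, and tumour cells can keep a low level of these genes without added interferon.

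The promoters of 33 of the 41 members were found in RefSeq (build GRCh38.p14; 250 bases before to 50 bases after the start; DDX58 under its newer symbol). The ISRE core was searched as GAAA, any 2 bases and GAAA again, on both strands, and a match is a description of letters, not of a bound site. It was present in 60.6% of the members' promoters (20 of 33) and in 3.57% of all 35116 promoters. The gamma-activated site, searched as TTCNNNGAA, reads the same on both strands and was present in 27.3% of the members' promoters (9 of 33) and in 7.66% of all. The windows printed here show the match nearest to and wholly before the start, in capitals, 5′ to 3′ on the gene's own strand. A match on the other strand reads as the reverse complement. The first 6 belong to members that fell with JQ1 in both genotypes.
BST2 (chr19:17405720-17405779, minus strand): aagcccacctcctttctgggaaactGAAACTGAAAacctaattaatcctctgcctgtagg
IFITM1 (chr11:313975-314034, plus strand): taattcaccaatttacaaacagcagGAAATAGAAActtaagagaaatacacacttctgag
DDX60 (chr4:168318771-168318830, minus strand): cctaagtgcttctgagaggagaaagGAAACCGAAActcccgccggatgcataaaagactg
IFI44 (chr1:78649746-78649788, plus strand): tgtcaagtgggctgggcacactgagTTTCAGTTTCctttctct
PARP14 (chr3:122680785-122680838, plus strand): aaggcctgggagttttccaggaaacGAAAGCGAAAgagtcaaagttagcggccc
IFIT1 (chr10:89392495-89392554, plus strand): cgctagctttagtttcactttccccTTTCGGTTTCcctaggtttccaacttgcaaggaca
The next 3 belong to members that did not pass the test of JQ1 in either genotype.
IFITM3 (chr11:320861-320920, minus strand): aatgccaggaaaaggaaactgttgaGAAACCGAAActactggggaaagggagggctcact
IFIT5 (chr10:89414524-89414567, plus strand): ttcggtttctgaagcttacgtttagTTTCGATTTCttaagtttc
IFI6 (chr1:27672251-27672310, minus strand): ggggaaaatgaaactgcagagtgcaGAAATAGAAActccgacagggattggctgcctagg
These windows are shown because the match stood in front of members that fell and of members that did not pass. DDX60 and IFITM3 carried the same GAAACCGAAA, and IFITM1 and IFI6 the same GAAATAGAAA. The match lay 114 bases before the start in BST2, 30 in IFITM1, 43 in DDX60, 25 in IFITM3 and 83 in IFI6. Of members that fell with JQ1 in both genotypes, 14 of 21 with a promoter held the ISRE core (66.7%). Of the 9 remaining members with a promoter, which did not pass in both genotypes or were not tested, 6 held it (66.7%). None of the 3 members with a promoter that rose in both genotypes (IFI35, STAT2 and IRF1) held it in this window.

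The libraries held 25316565 to 34594025 estimated counts, and values are given as CPM, the count as a share of the scaled library total. MAPKAPK2 itself was at 89.6 ± 2.20 CPM in wild-type DMSO and 12.4 ± 1.15 in knockout DMSO (SD, n = 3 each), and at 117 ± 4.31 and 14.4 ± 1.61 under JQ1. The lineage genes SOX10 (437 ± 7.38 CPM in wild-type DMSO), MITF (43.1 ± 1.01) and S100B (29.3 ± 1.27) were expressed, while PMEL, MLANA, TYR and DCT stayed at or below 1.45 CPM in every library. Markers of cells that make or answer interferon strongly were near 0: PTPRC had 3 to 8 counts per library, CD3E 0 to 3, CLEC4C 0 to 3 and LILRA4 0 to 1. The 6 leukocyte genes summed to 7.39 to 7.86 CPM in wild-type DMSO, 9.58 to 10.7 in wild-type JQ1, 6.32 to 7.12 in knockout DMSO and 10.1 to 10.4 in knockout JQ1. Of these genes NCAM1 was higher with JQ1, at 3.68 to 4.07, 7.61 to 8.64, 2.91 to 3.27 and 7.91 to 8.12 CPM in that order. LYZ was lower with JQ1, at 2.27 to 2.59, 0.742 to 0.947, 2.06 to 2.81 and 0.990 to 1.18 CPM. The 3 keratinocyte genes summed to 1.49 to 2.09 CPM in wild-type DMSO, 0.503 to 0.879 in wild-type JQ1, 1.02 to 1.51 in knockout DMSO and 0.0406 to 0.317 in knockout JQ1, with KRT1 at 0 counts in every library. The 3 fibroblast genes summed to 10.4 to 11.98 CPM, 10.2 to 12.7, 8.86 to 10.4 and 7.25 to 9.21 in the same order; with JQ1 2 fell and 1 rose in wild type and 1 fell and 1 rose in knockout. Among them LUM went from 3.86 ± 0.855 to 0.504 ± 0.136 CPM in wild type and from 4.36 ± 0.630 to 0.631 ± 0.179 CPM in knockout (SD, n = 3). All 12 libraries were of the A375 line, and whether any other cells were present was not tested. In bulk RNA, fewer cells of a type and less RNA per cell cannot be told apart. The third knockout JQ1 library had the highest share of counts in 4 abundant noncoding RNAs (14.6%, against 9.42% at the lowest).

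JQ1 lowered most of these genes in wild-type cells. Summed over the members, the level was 947 to 958 CPM in the 3 wild-type DMSO libraries and 656 to 668 CPM in the 3 JQ1 libraries. Of the 41 members, 26 fell, 4 rose (IFI35, IRF1, IRF7 and STAT2), 7 did not pass and 4 were not tested (edgeR's quasi-likelihood test, Benjamini-Hochberg adjusted p under 0.05). The members that fell were 70.3% of the 37 tested, and 16.2% of all tested genes fell; the 4 that rose were 10.8%, beside 16.9% of all (33.1% in either direction). With scaling by library totals alone, 24.7% of all tested genes fell and 10.6% rose. In 27 members every JQ1 library lay below every DMSO library, which held for 26% of all tested genes. The median log2 fold change of the tested members was -0.67, and of all tested genes -0.03. A fall of at least 2-fold was called for 11 members (29.7%) and for 5% of all tested genes.

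**Figure D1:**
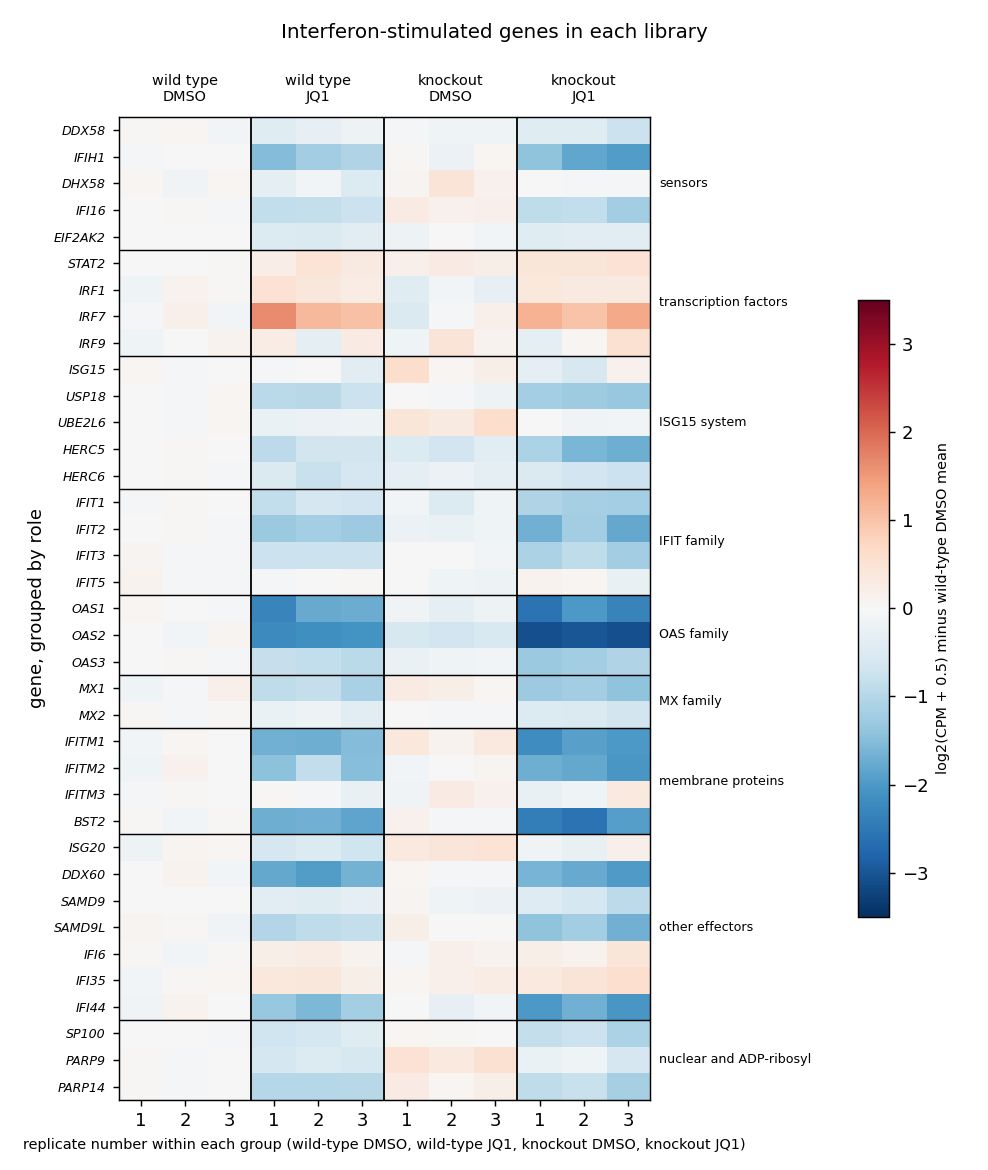
Level of each of the 37 tested members (vertical axis, grouped by role) in each of the 12 libraries (horizontal axis, replicate number within group), as log2(CPM + 0.5) minus the wild-type DMSO mean, blue for lower and red for higher. Most members are blue in both JQ1 groups, and IRF7 is the reddest. Its edgeR log2 fold change with JQ1 in wild type, which is not the quantity drawn here, was 1.47.

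The oligoadenylate synthetases, which sense double-stranded RNA and activate RNase L, fell together: 3 of 3 tested members passed in each genotype. OAS2 was at 10.9, 10.3 and 11.8 CPM in wild-type DMSO and at 1.95, 2.08 and 2.22 CPM under JQ1. In knockout cells it was at 7.37, 6.73 and 7.44 CPM in DMSO and at 0.876, 0.933 and 0.855 CPM under JQ1. All 4 groups of OAS2 were separate, with knockout JQ1 lowest. Its log2 fold change with JQ1 was -2.40 (SE 0.11, adjusted p = 1.66e-09), to 18.9% of the DMSO level, in wild type and -3.01 (SE 0.13, adjusted p = 7.03e-10), to 12.4%, in knockout. OAS2 had 23 to 27 counts in each knockout JQ1 library. OAS1 was at 8.52, 7.97 and 7.64 CPM in wild-type DMSO, 1.22, 2.00 and 2.07 CPM in wild-type JQ1, 7.31, 6.18 and 6.99 CPM in knockout DMSO and 0.914, 1.62 and 1.20 CPM in knockout JQ1. For OAS1 the treatments did not overlap and the genotypes overlapped under JQ1; its log2 fold changes with JQ1 were -2.19 (SE 0.19, adjusted p = 6.58e-07) and -2.46 (SE 0.20, adjusted p = 3.52e-07). OAS3 was at 72.2, 72.4 and 68.2 CPM in wild-type DMSO and at 40.4, 38.7 and 36.8 CPM under JQ1. In knockout cells OAS3 was at 59.9, 63.5 and 66.3 CPM in DMSO and at 28.4, 30.3 and 33.7 CPM under JQ1. Its fall was smaller on the log2 scale, -0.88 (SE 0.07, adjusted p = 3.53e-07) in wild type and -1.03 (SE 0.07, adjusted p = 6.62e-08) in knockout, and its groups were again separate.

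Among the membrane proteins, which hold viruses at the cell surface or in endosomes, 3 of 4 fell in each genotype and IFITM3 did not pass. BST2 (tetherin), which retains budding virus, was at 4.83, 4.36 and 4.84 CPM in wild-type DMSO, 1.07, 1.11 and 0.947 CPM in wild-type JQ1, 5.23, 4.46 and 4.42 CPM in knockout DMSO and 0.457, 0.365 and 0.855 CPM in knockout JQ1. The DMSO levels of the genotypes overlapped, and every JQ1 library was below them. The log2 fold changes were -2.17 (SE 0.20, adjusted p = 1.20e-06) and -3.02 (SE 0.22, adjusted p = 1.05e-07), the latter resting on 9 to 27 counts in each knockout JQ1 library. IFITM1, which blocks virus entry, was at 3.10, 3.47 and 3.38 CPM in wild-type DMSO, 0.691, 0.668 and 0.828 CPM in wild-type JQ1, 4.42, 3.67 and 4.32 CPM in knockout DMSO and 0.343, 0.527 and 0.443 CPM in knockout JQ1. The log2 fold changes of IFITM1 with JQ1 were -2.17 (SE 0.17, adjusted p = 3.03e-07) in wild type and -3.23 (SE 0.19, adjusted p = 1.12e-08) in knockout, to 22.2% and 10.6% of the DMSO level. IFITM2 was at 7.15, 8.89 and 8.0 CPM in wild-type DMSO, 2.64, 4.16 and 2.51 CPM in wild-type JQ1, 7.41, 7.86 and 8.5 CPM in knockout DMSO and 2.09, 1.95 and 1.58 CPM in knockout JQ1. Its levels in DMSO overlapped between genotypes and those under JQ1 did not. IFITM3, a close relative, was at 51.6, 54.3 and 52.0 CPM in wild-type DMSO and 53.7, 51.1 and 43.7 CPM in wild-type JQ1, with a log2 difference of -0.09 (SE 0.14, adjusted p = 0.662). In knockout cells IFITM3 was at 48.5, 64.6 and 58.6 CPM in DMSO and 43.8, 47.4 and 66.3 CPM under JQ1, so its groups overlapped. IFITM3 did not pass in knockout (-0.12, adjusted p = 0.539), and passed as lower without the third knockout JQ1 library, the one at 66.3 CPM (-0.33, adjusted p = 0.0241). The IFITM genes are near-identical in part, and estimated counts can be split among them, so the division between IFITM1, IFITM2 and IFITM3 is uncertain.

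**Figure D2:**
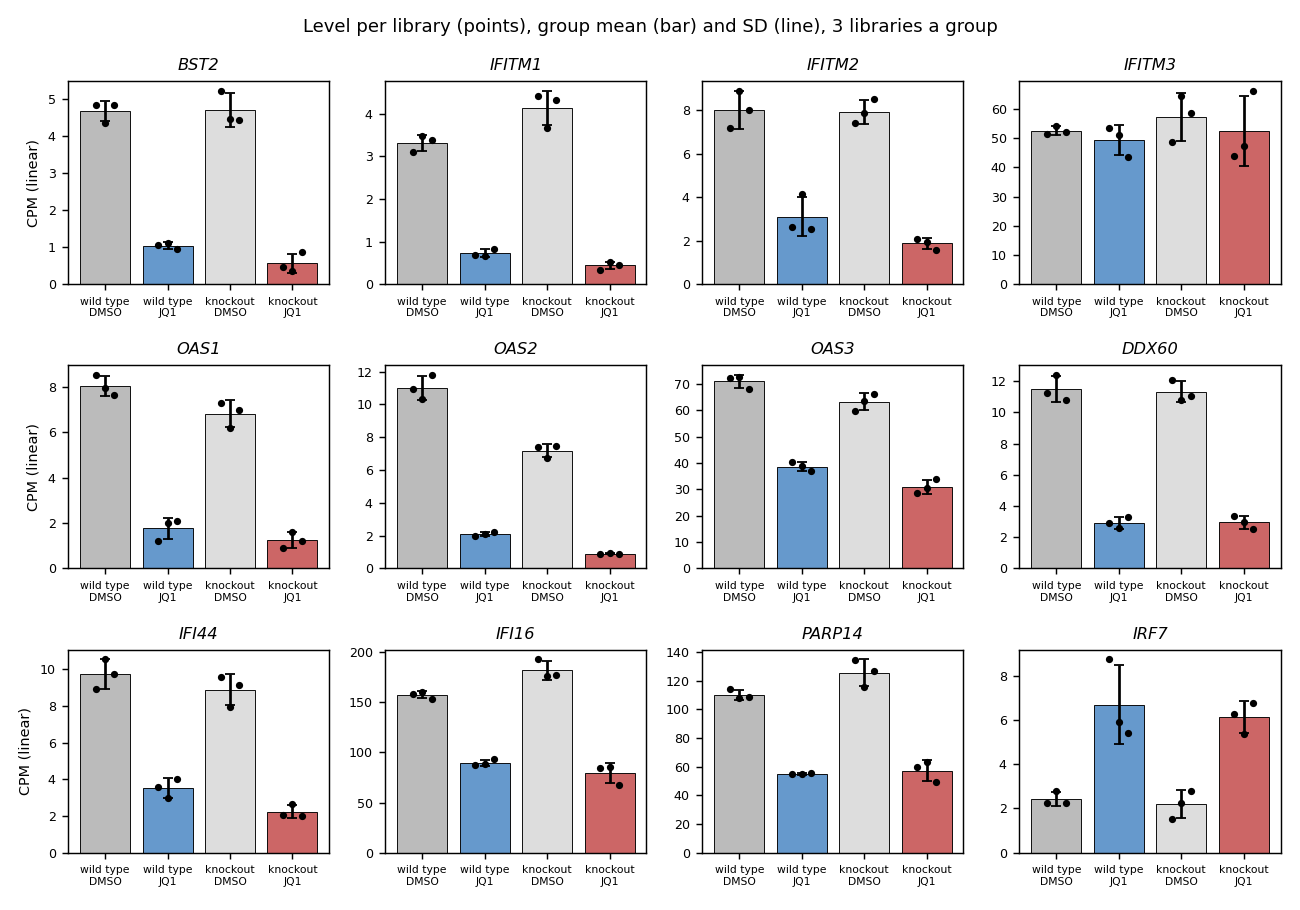
Level in CPM (vertical axis, linear, own scale in each panel) of 12 members in the 4 groups (horizontal axis); points are libraries, bars are means and lines are SD (n = 3). BST2, IFITM1, IFITM2, the OAS genes, DDX60, IFI44, IFI16 and PARP14 are lower in both JQ1 groups, IFITM3 overlaps across groups and IRF7 is higher with JQ1.

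Of the nucleic acid sensors and the kinase PKR (EIF2AK2), 3 of 5 fell in wild type and 4 of 5 in knockout. IFI16, a sensor of DNA, was at 158, 161 and 154 CPM in wild-type DMSO and 87.2, 88.7 and 93.0 CPM under JQ1. In knockout cells it was at 193, 176 and 177 CPM in DMSO and 84.8, 85.9 and 67.7 CPM under JQ1. Knockout DMSO was thus the highest group for IFI16 and knockout JQ1 the lowest, with log2 fold changes with JQ1 of -0.81 (SE 0.08, adjusted p = 2.08e-06) in wild type and -1.20 (SE 0.08, adjusted p = 3.81e-08) in knockout. IFIH1 fell by 1.38 on the log2 scale in wild type (SE 0.16, adjusted p = 1.29e-05) and fell by 1.91 in knockout (SE 0.17, adjusted p = 8.91e-07), while EIF2AK2 had log2 fold changes of -0.47 and -0.32. DDX58 passed in knockout (-0.45, adjusted p = 0.0130) and not in wild type (-0.32, adjusted p = 0.0574); without the third knockout JQ1 library these were -0.33 (adjusted p = 0.0571) and -0.32 (adjusted p = 0.0292), and without the third wild-type JQ1 library the wild-type value was -0.39 (adjusted p = 0.0494). With library totals alone the wild-type value was -0.45 (adjusted p = 0.0148). DHX58, which tunes the signal of both helicases, did not pass in either, at -0.35 and -0.31.

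The other effectors held 7 tested genes, of which 5 fell and IFI35 rose in each genotype. DDX60, a helicase that acts beside RIG-I, was at 11.2, 12.4 and 10.8 CPM in wild-type DMSO, 2.92, 2.56 and 3.31 CPM in wild-type JQ1, 12.1, 10.8 and 11.1 CPM in knockout DMSO and 3.35, 3.00 and 2.5 CPM in knockout JQ1. The genotypes overlapped within each treatment, and the log2 fold changes were -1.96 (SE 0.13, adjusted p = 4.42e-08) and -1.94 (SE 0.13, adjusted p = 4.19e-08). IFI44 was at 8.94, 10.6 and 9.76 CPM in wild-type DMSO, 3.58, 2.97 and 4.02 CPM in wild-type JQ1, 9.59, 7.93 and 9.16 CPM in knockout DMSO and 2.06, 2.68 and 1.99 CPM in knockout JQ1. For IFI44 all JQ1 libraries lay below all DMSO libraries, and the knockout ones below the wild-type ones. Its log2 fold changes with JQ1 were -1.46 (SE 0.14, adjusted p = 1.85e-06) and -1.99 (SE 0.15, adjusted p = 1.42e-07). SAMD9L and SAMD9, paralogous growth-restraining antiviral genes, had log2 fold changes of -0.97 and -0.38 in wild type and of -1.60 and -0.58 in knockout, and all of these passed. IFI6 did not pass (0.19 and 0.17). IFI27 had 0 to 3 counts per library, IFI44L 1 to 20, OASL 1 to 11 and RSAD2 (viperin) 1 to 11, and these 4 were not tested.

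PARP14, an ADP-ribosyltransferase, was at 114, 108 and 108 CPM in wild-type DMSO, 54.5, 54.6 and 55.4 CPM in wild-type JQ1, 134, 116 and 127 CPM in knockout DMSO and 59.5, 63.3 and 48.9 CPM in knockout JQ1. Its log2 fold change was -1.0 in wild type (SE 0.08, adjusted p = 4.47e-07) and -1.14 in knockout (SE 0.08, adjusted p = 1.10e-07), with no overlap between treatments. Its relative PARP9 fell (log2 -0.56 and -0.79), as did the nuclear body protein SP100 (-0.58 and -0.94). Of the IFIT genes, which bind viral RNA lacking the host cap marks, IFIT1, IFIT2 and IFIT3 fell in both genotypes (log2 -0.77, -1.48 and -0.83 in wild type, and -1.01, -1.66 and -1.17 in knockout). IFIT5 did not pass, at -0.01 and 0.08. Both MX genes, dynamin-like GTPases, fell: the log2 fold changes were -1.07 and -1.68 for MX1, and -0.27 and -0.51 for MX2. The call of MX2 in wild type was lost without the third wild-type JQ1 library (-0.21, adjusted p = 0.0505).

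ISG15 is a ubiquitin-like modifier, UBE2L6 its conjugating enzyme, HERC5 its ligase and USP18 the protease that removes it. In wild type 4 of these 5 genes (with HERC6) fell and ISG15 did not pass (-0.19, adjusted p = 0.594); in knockout all 5 passed, ISG15 at -0.65 (SE 0.24, adjusted p = 0.0462). ISG15 was low, at 31 to 109 counts per library. Its call in knockout was lost on leaving out any single library other than the second knockout DMSO, the third knockout JQ1 or the third wild-type JQ1 library, and without the first knockout DMSO library the difference was -0.43 (adjusted p = 0.219). It was also lost with DESeq2 (adjusted p = 0.0537) and with only the groups compared (adjusted p = 0.0911). The log2 fold changes in wild type and knockout were -0.96 and -1.29 for USP18, -0.79 and -1.08 for HERC5, -0.67 and -0.39 for HERC6, and -0.21 and -0.52 for UBE2L6. UBE2L6 in wild type had an adjusted p of 0.0434, and lost its call without any of the 6 wild-type libraries (adjusted p up to 0.173), with DESeq2 (0.0624), with its size factors in edgeR (0.0673) and with no filter on low counts (0.109). It was also lost without the first knockout DMSO library (-0.20, adjusted p = 0.0655) or the second knockout JQ1 library (-0.21, adjusted p = 0.0528). HERC6 in knockout was lost without the second knockout DMSO library (-0.35, adjusted p = 0.0592) or the third knockout JQ1 library (-0.33, adjusted p = 0.0547).

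The transcription factors of the pathway did not fall in either genotype: 3 of 4 rose in each. IRF7, the factor that amplifies interferon production, was at 2.27, 2.80 and 2.23 CPM in wild-type DMSO and 8.76, 5.94 and 5.41 CPM under JQ1. In knockout cells IRF7 was at 1.54, 2.27 and 2.81 CPM in DMSO and 6.28, 5.36 and 6.77 CPM under JQ1. Every JQ1 library of IRF7 was above every DMSO library, a rise of 2.77-fold in wild type (log2 1.47, SE 0.21, adjusted p = 9.50e-05) and of 2.80-fold in knockout (log2 1.48, SE 0.22, adjusted p = 9.84e-05). IRF1 rose by 0.41 (adjusted p = 0.0187) and 0.64 (adjusted p = 0.00118) on the log2 scale, and STAT2 by 0.35 (adjusted p = 0.00176) and 0.23 (adjusted p = 0.0235). IRF9, the DNA-binding partner of STAT2, did not pass, at 0.12 and -0.02. Scaling by library totals alone moved the median log2 fold change of all genes by -0.13 in wild type and -0.12 in knockout, and then IRF1 and IFI35 in wild type and IFI35 and STAT2 in knockout no longer passed. The call of IRF1 in wild type was also lost without the first wild-type DMSO library (0.33, adjusted p = 0.0831) or the first wild-type JQ1 library (0.35, adjusted p = 0.0833). The call of STAT2 in knockout was lost without the first or the third knockout DMSO library or the third knockout JQ1 library (0.20 to 0.22, adjusted p up to 0.0765), with no filter on low counts (0.0713) and with only the groups compared (0.0673). That of IFI35 in knockout was lost without the first knockout DMSO library (0.24, adjusted p = 0.0735) or the third knockout JQ1 library (0.23, adjusted p = 0.0547), and with only the groups compared (0.0558). IRF7, IRF1, STAT2, IFI35 and IFITM3, outside the rule for naming genes, were singled out after their values were seen.

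In knockout cells 28 members fell with JQ1 (75.7% of the 37 tested, beside 17.8% of all tested genes) and the same 4 rose (10.8%, beside 16.7%; 34.4% of all in either direction). With scaling by library totals alone, 24.2% of all tested genes fell and 11.1% rose. All 26 members that fell in wild type were among the 28, which is 92.9% of the knockout list. The other two were DDX58 and ISG15, for which the difference between genotypes was not called (interaction adjusted p = 0.901 and 0.757). In 28 members every JQ1 library lay below every DMSO library (22% of all tested genes). Falls of at least 2-fold were called for 18 members (48.6%) and for 5.68% of all tested genes. The median log2 fold change of the members was -0.94, with 0.00 over all tested genes.

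**Figure D3:**
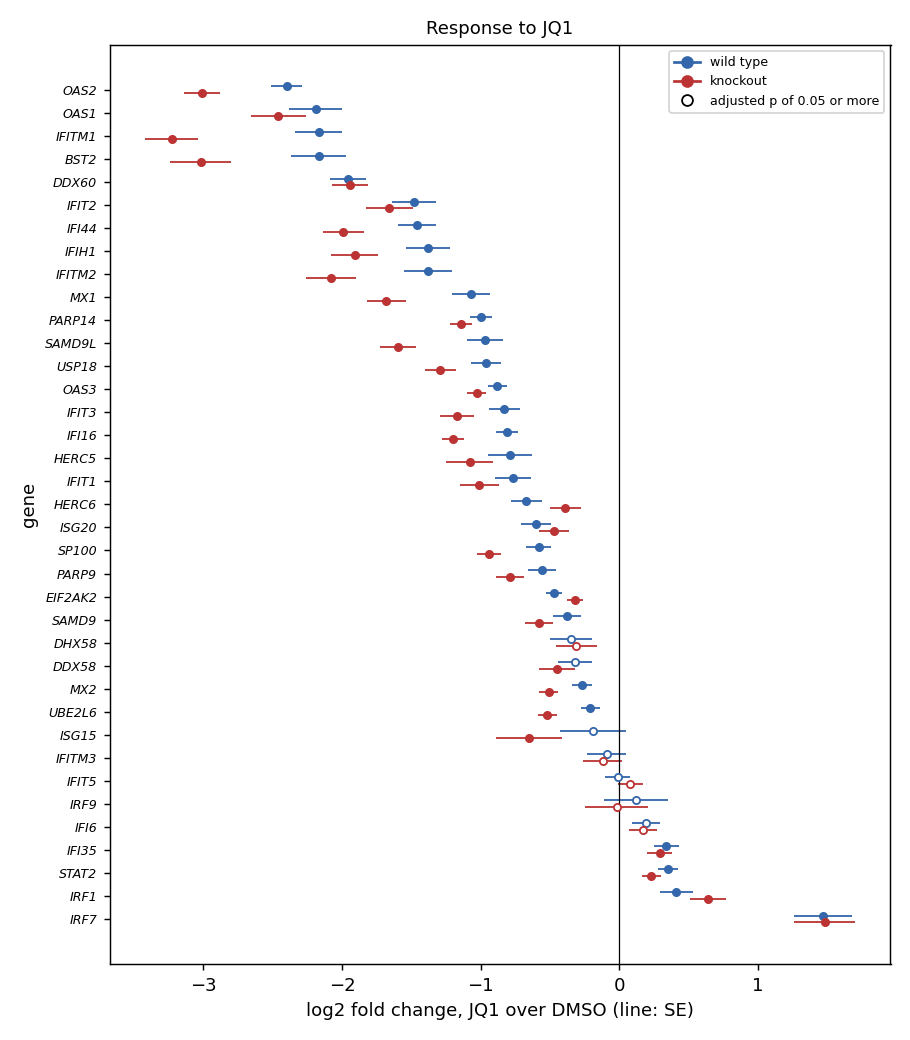
Log2 fold change of JQ1 over DMSO (horizontal axis; points, with SE as lines) for the 37 tested members (vertical axis) in wild type (blue) and knockout (red), open points where the adjusted p was 0.05 or more. OAS2, IFITM1 and BST2 lie farthest left, at -3.01, -3.23 and -3.02 in knockout, and IRF7 farthest right.

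The difference between the responses was tested directly, as the interaction of genotype and JQ1. None of the 37 members passed with edgeR, where 29 of all tested genes did (0.134%). None passed with DESeq2, where 139 of all tested genes did (0.641%). At shares this small, a count of 0 among 37 members says little about them. At an unadjusted p under 0.05 there were 12 members with either tool (32.4%, beside 8.37% of all tested genes with edgeR). The difference in log2 response, knockout minus wild type, was negative for 29 of 37 members (78.4%, median -0.23) and for 51.1% of all tested genes (median -0.01). Among genes lower with JQ1 in both genotypes and called in either, it was negative for 24 of 28 members (85.7%, median -0.30) and for 65.1% of 4474 genes (median -0.10). The most negative values were those of IFITM1 (-1.06, SE 0.27, adjusted p = 0.227), BST2 (-0.86, SE 0.31, adjusted p = 0.456) and IFITM2 (-0.71, SE 0.25, adjusted p = 0.456). DDX60 was at 0.01 (SE 0.18, adjusted p = 0.995).

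Without drug, 5 of the 37 tested members differed between knockout and wild type. The summed level was 1001 to 1030 CPM in knockout DMSO, above the 947 to 958 CPM of wild type, and the median log2 difference over the members was -0.02 (0.00 over all tested genes). This comparison uses the same wild-type DMSO libraries as the JQ1 response of wild-type cells. UBE2L6, PARP9 and ISG20 were higher and OAS2 and HERC5 lower, which is 13.5% of the tested members beside 7.92% of all tested genes (3.47% higher and 4.44% lower). UBE2L6 was at 40.1, 38.9 and 41.9 CPM in wild type and 53.9, 50.3 and 61.5 CPM in knockout (log2 0.46, SE 0.07, adjusted p = 0.00112). PARP9 was at 34.8, 32.8 and 34.7 CPM in wild type and 48.2, 43.6 and 49.6 CPM in knockout (log2 0.47, SE 0.09, adjusted p = 0.00546). Both were separate between genotypes in DMSO; under JQ1 PARP9 overlapped, at 22.0, 24.4 and 23.0 CPM in wild type and 28.8, 30.5 and 22.7 CPM in knockout. The overlap of PARP9 came from the third knockout JQ1 library, without which it was called higher in knockout (0.36, adjusted p = 0.00503). UBE2L6 under JQ1 was at 34.3, 34.5 and 35.7 CPM in wild type and 40.4, 37.1 and 37.7 CPM in knockout, separate but without passing (log2 0.14, adjusted p = 0.315). The partner of PARP9, DTX3L, which is not a member, was also higher in knockout DMSO (log2 0.30, adjusted p = 0.00617).

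ISG20, an RNA exonuclease, was higher in knockout in both treatments. It was at 32.7, 39.8 and 38.7 CPM in wild-type DMSO and 47.0, 49.96 and 52.1 CPM in knockout DMSO. Under JQ1 ISG20 was at 24.6, 26.3 and 22.6 CPM in wild type and 33.9, 30.9 and 42.3 CPM in knockout. The genotypes were separate each time, with log2 differences of 0.42 (SE 0.11, adjusted p = 0.0235) and 0.55 (SE 0.11, adjusted p = 0.00544). In DMSO its call was lost without the second (0.43, adjusted p = 0.0540) or the third knockout DMSO library (0.39, adjusted p = 0.0839) or the first wild-type one (0.35, adjusted p = 0.104). OAS2, with the values given above, was lower in knockout in both treatments, at log2 differences of -0.62 (SE 0.10, adjusted p = 0.00110) and -1.23 (SE 0.15, adjusted p = 7.00e-05). HERC5 was at 7.69, 7.90 and 7.59 CPM in wild-type DMSO, 5.45, 4.67 and 5.79 CPM in knockout DMSO, 3.89, 4.79 and 4.73 CPM in wild-type JQ1 and 3.35, 2.19 and 2.03 CPM in knockout JQ1. HERC5 was separate between genotypes in both treatments, with log2 differences of -0.54 (SE 0.15, adjusted p = 0.0443) and -0.83 (SE 0.17, adjusted p = 0.00686). Its call in DMSO was lost without any of the 6 DMSO libraries (-0.60 to -0.44, adjusted p up to 0.190), without the second or the third wild-type JQ1 library (-0.54, adjusted p up to 0.0603), and with DESeq2's size factors in edgeR (0.0517). The count of 5 became 3 without the second or the third knockout DMSO library or the first wild-type DMSO library, and 8 without the third knockout JQ1 library, where IFI16 (0.21, adjusted p = 0.00707), PARP14 (0.19, adjusted p = 0.0272) and STAT2 (0.23, adjusted p = 0.0363) were also called higher. With only the groups compared these 3 passed too (adjusted p = 0.0124, 0.0407 and 0.0250), and STAT2 passed with DESeq2 (adjusted p = 0.0289). The share of all tested genes called moved as well. It was 4.83% to 5.64% in the fits with 3 members, 11.9% without the third knockout JQ1 library and 12.7% with only the groups compared.

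Under JQ1 more members were lower in knockout than in wild type. The 10 lower members were OAS2, HERC5, OAS3, IFI44, SAMD9L, MX2, USP18, IFITM2, IFIT1 and SP100, and ISG20 alone was higher. These are 11 of 37 (29.7%), beside 8.57% of all tested genes; 27% of the members and 5.56% of all tested genes were lower, and 3.01% of all tested genes were higher. The median log2 difference of the members was -0.26 (0.00 over all), and 16 members lay wholly below wild type (12.4% of all tested genes). OAS3 differed by -0.32 (SE 0.07, adjusted p = 0.0110), IFI44 by -0.67 (SE 0.16, adjusted p = 0.0163) and IFITM2 by -0.72 (SE 0.20, adjusted p = 0.0345). SAMD9L was at 5.97, 6.64 and 6.89 CPM in wild type and 4.49, 5.15 and 3.58 CPM in knockout (log2 -0.57, SE 0.14, adjusted p = 0.0175). MX2 was at 30.6, 32.2 and 27.6 CPM in wild type and 26.0, 25.6 and 23.3 CPM in knockout (log2 -0.27, SE 0.07, adjusted p = 0.0293). In DMSO SAMD9L was at 13.6, 13.0 and 11.5 CPM in wild type and 14.8, 12.5 and 12.5 CPM in knockout. MX2 in DMSO was at 37.1, 34.8 and 37.0 CPM in wild type and 36.0, 35.3 and 34.9 CPM in knockout. The 2 genotypes overlapped in DMSO for SAMD9L and MX2. USP18 was at 4.33, 4.19 and 4.97 CPM in wild-type JQ1 and 3.54, 3.41 and 3.17 CPM in knockout JQ1 (log2 -0.42, SE 0.11, adjusted p = 0.0334). In DMSO USP18 was at 8.73, 8.46 and 9.15 CPM in wild type and 8.66, 8.27 and 7.69 CPM in knockout, which overlapped. IFIT1 and SP100 were at -0.49 (adjusted p = 0.0413) and -0.33 (adjusted p = 0.0401). BST2 did not pass (-0.85, adjusted p = 0.0545) and passed without the third knockout JQ1 library (-1.33, adjusted p = 0.00250), with library totals alone (-0.88, adjusted p = 0.0379) and with no filter on low counts (-0.86, adjusted p = 0.0444).

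The knockout difference under JQ1 depended on single libraries more than the JQ1 responses did. The count of 11 became 6 without the third wild-type DMSO library, the second wild-type JQ1 library or the third one. It became 7 without the first or second wild-type DMSO library, the second knockout DMSO library or the third knockout JQ1 library. Of all tested genes, 5.41% to 7.01% were called in the fits with 6 members and 7.03% to 10.5% in those with 7. With only the 6 JQ1 libraries in the fit, 2 members passed, OAS2 (lower) and ISG20 (higher). In that fit 4.66% of all tested genes were called, 3.25% lower and 1.42% higher, so the members' calls were near that share. OAS2 and ISG20 kept their calls in each of the 18 alternatives run, and HERC5 lost its call only in that smaller fit (adjusted p = 0.0532). OAS3 and IFI44 were lost without the first knockout JQ1 library (adjusted p = 0.0511 and 0.0623) or the first wild-type JQ1 library (0.0591 and 0.0514), and IFI44 also without the third wild-type JQ1 library (0.0794). SAMD9L was lost without the third knockout JQ1 library (-0.43, adjusted p = 0.0502) or the second or the third wild-type JQ1 library (adjusted p up to 0.0690). IFITM2 was lost without the second knockout DMSO, the second or the third knockout JQ1, the third wild-type DMSO or the second wild-type JQ1 library (-0.46, adjusted p = 0.151 without the last). With 1 library left out, the call of MX2 remained only without the first knockout DMSO, the first knockout JQ1 or the third wild-type JQ1 library (adjusted p up to 0.145 otherwise). That of USP18 remained only without the first or the third knockout DMSO or the second wild-type JQ1 library (up to 0.145), and was lost with DESeq2 (0.0570) and with no filter on low counts (0.104). IFIT1 remained called only without the first or the second knockout DMSO or the first wild-type JQ1 library (up to 0.158), and was lost with no filter on low counts (0.0575). SP100 remained called only without the second knockout JQ1 or the first wild-type JQ1 library (up to 0.176).

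**Figure D4:**
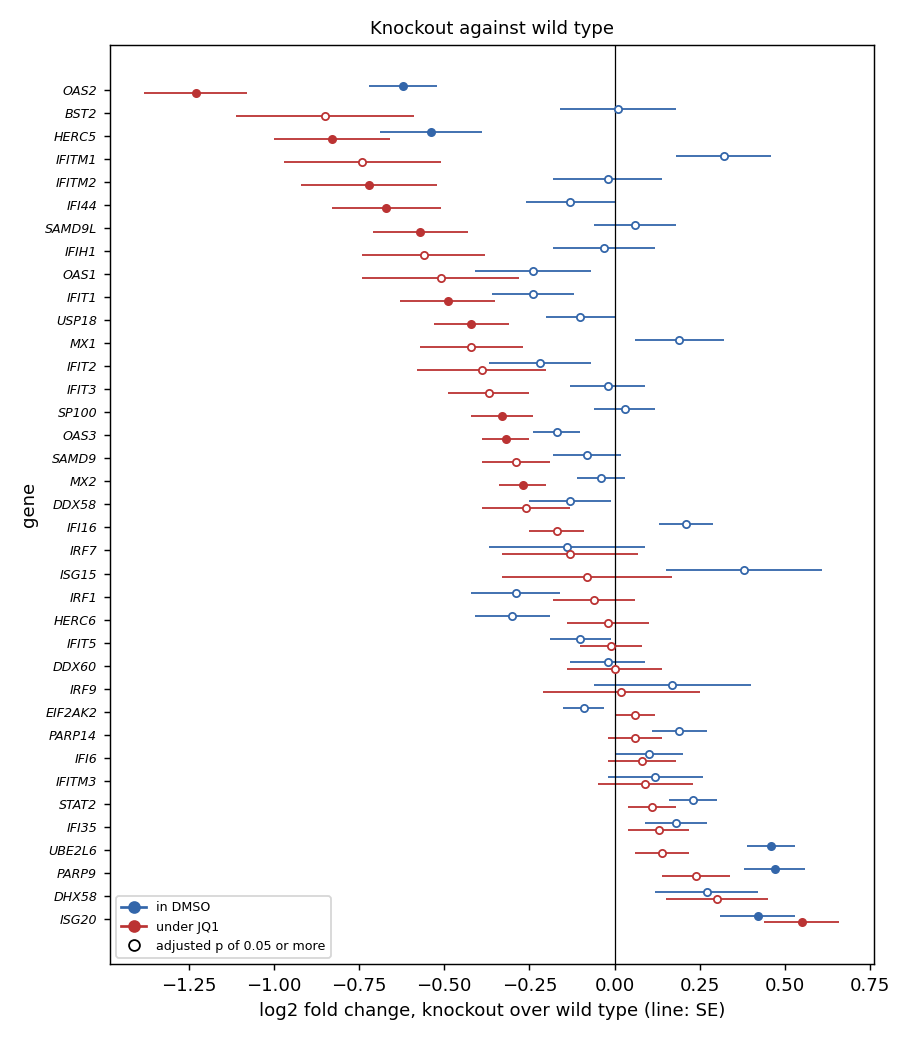
Log2 fold change of knockout over wild type (horizontal axis; points, with SE as lines) for the 37 tested members (vertical axis) in DMSO (blue) and under JQ1 (red), open points where the adjusted p was 0.05 or more. OAS2 lies farthest left under JQ1 at -1.23 and ISG20 farthest right at 0.55, and most points in DMSO are open and near 0.

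Of 19 upstream genes of sensing and signalling, 18 were tested (the gene of cGAS, MB21D1, had 3 to 12 counts per library). With JQ1, 8 rose and 4 fell in wild type, and 5 rose and 4 fell in knockout, with median log2 fold changes of 0.05 and 0.10. Of all tested genes, 16.9% rose and 16.2% fell in wild type, and 16.7% rose and 17.8% fell in knockout. TLR3, the endosomal sensor of double-stranded RNA, was at 6.56, 5.56 and 6.02 CPM in wild-type DMSO and 0.534, 0.668 and 0.947 CPM under JQ1. In knockout cells TLR3 was at 8.43, 8.65 and 9.48 CPM in DMSO and 1.22, 0.771 and 0.855 CPM under JQ1. Its log2 fold change was -3.06 (SE 0.19, adjusted p = 2.98e-08) in wild type and -3.22 (SE 0.19, adjusted p = 9.00e-09) in knockout. The JQ1 levels of TLR3 rested on 17 to 32 counts per library. TMEM173, the gene of STING, was at 11, 12.6 and 13.1 CPM in wild-type DMSO, 2.95, 3.41 and 2.66 CPM in wild-type JQ1, 12.8, 11.02 and 13.9 CPM in knockout DMSO and 1.29, 2.15 and 1.74 CPM in knockout JQ1. The treatments were separate for both genes, and the log2 fold changes of TMEM173 were -2.03 (SE 0.15, adjusted p = 1.61e-07) and -2.86 (SE 0.16, adjusted p = 9.00e-09). The interaction of TMEM173 did not pass (adjusted p = 0.253). SOCS1 was higher with JQ1, at means of 0.167 and then 0.980 CPM in wild type and 0.281 and then 0.778 CPM in knockout (n = 3). PTPN6 was lower, at 0.463 and then 0.121 CPM in wild type and 0.226 and then 0.0443 CPM in knockout. Treatments were separate for both, on 4 to 39 counts per library for SOCS1 and 0 to 21 for PTPN6. These 2 genes, outside the rule for naming genes, were singled out after their values were seen.

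The genes of the interferon receptor and its kinases (IFNAR1, IFNAR2, JAK1 and TYK2) were not called lower with JQ1, whereas IKBKE, a kinase of the sensing arm, fell (log2 -0.61 and -0.70, adjusted p = 0.00174 and 0.000742). JAK1, a receptor-bound kinase, was at 123, 125 and 121 CPM in wild-type DMSO and 175, 179 and 178 CPM under JQ1, and at 122, 115 and 124 CPM and then 166, 165 and 158 CPM in knockout. JQ1 was above DMSO in every library. JAK1 rose by 0.53 (adjusted p = 1.56e-06) and 0.43 (adjusted p = 8.51e-06), and IFNAR2 by 0.37 (adjusted p = 0.00640) and 0.61 (adjusted p = 1.41e-04); with library totals alone IFNAR2 did not pass in wild type (0.24, adjusted p = 0.0536). IFNAR1 (-0.04 and 0.12) and TYK2 (0.10 and -0.04) did not pass. In knockout against wild type, STAT3, SOCS3 and TLR3 were higher in DMSO, at 0.40, 0.40 and 0.55 on the log2 scale; the call of TLR3 was lost without any of the 6 DMSO libraries (adjusted p up to 0.140) and with library totals alone (0.0577). That of SOCS3 was lost without the second or the third knockout DMSO or the first or the second wild-type DMSO library (adjusted p up to 0.0737). Under JQ1 STAT3 was higher (0.28, adjusted p = 0.0153) and TMEM173 lower (-0.80, adjusted p = 0.0118). STAT3 was lost without the second or the third wild-type JQ1 library (adjusted p = 0.0529 and 0.0760), and TMEM173 without the first knockout JQ1 library (-0.63, adjusted p = 0.0541) or the second wild-type JQ1 library (-0.70, adjusted p = 0.0574). Both were also lost with only the groups compared (adjusted p = 0.0688 for STAT3 and 0.0681 for TMEM173).

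**Figure D5:**
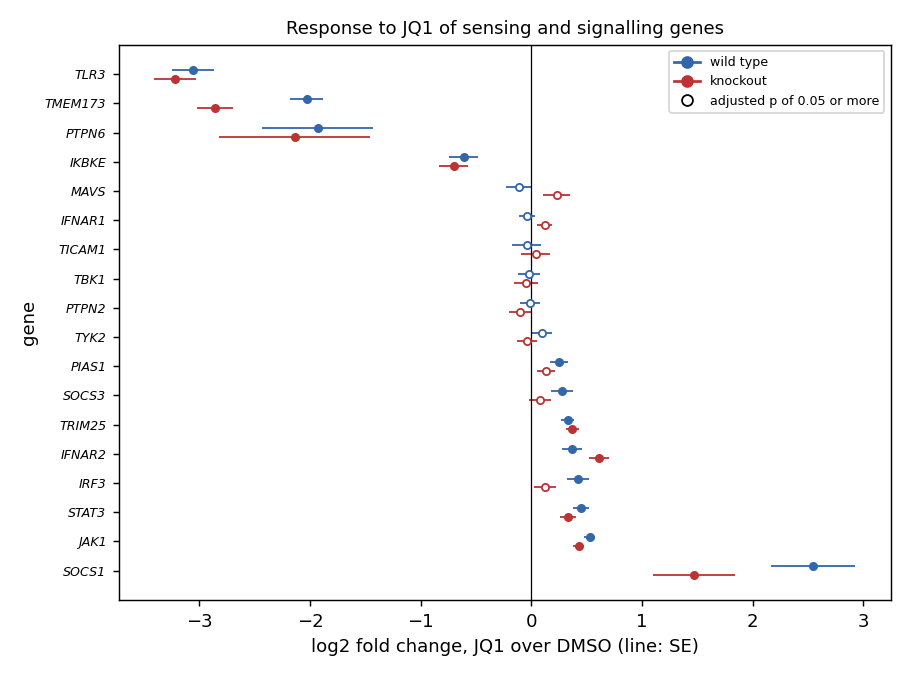
Log2 fold change of JQ1 over DMSO (horizontal axis; points, with SE as lines) for 18 upstream genes (vertical axis) in wild type (blue) and knockout (red), open points where the adjusted p was 0.05 or more. TLR3, TMEM173 and PTPN6 lie to the left, and SOCS1 and JAK1 to the right of 0.

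Transcripts were few for the interferon ligand genes examined, and other interferon genes were not examined. Of 9 ligand genes, IFNA2, IFNL1, IFNL2, IFNL3 and IFNG had no count in any library, where 3 counts correspond to 0.0825 to 0.122 CPM and so bound what could be seen. IFNB1 had 1 count in 1 library, IFNA1 had 0 to 15 and IFNK 0 to 5. IFNE, the only ligand tested, had 8 to 39 counts per library. With JQ1 IFNE was called higher in knockout (log2 0.92) and not in wild type (0.49). That call was lost without any knockout DMSO library or without the first or second knockout JQ1 library (adjusted p up to 0.0996). It was also lost with DESeq2 (0.0973), with library totals alone (0.0623), with no filter on low counts (0.115) and with only the groups compared (0.0651). IFNE was lower in knockout in DMSO (log2 -1.42, SE 0.26, adjusted p = 0.00254) and under JQ1 (-1.0, SE 0.23, adjusted p = 0.0129), the latter lost without the third wild-type JQ1 library (-0.95, adjusted p = 0.0522), with DESeq2 (adjusted p = 0.0680), with no filter on low counts (0.0546) and with only the groups compared (0.0604).

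Neighbouring gene lists gave the following counts. Beside them, 16.2% of all tested genes fell and 16.9% rose with JQ1 in wild type (33.1% in either direction). In knockout 17.8% of all tested genes fell and 16.7% rose (34.4% in either direction). Of 17 genes of the interferon gamma arm, 11 were tested; 7 fell and none rose with JQ1 in wild type (median -0.79), and 6 fell and none rose in knockout (median -0.42). The guanylate-binding protein genes GBP1 and GBP2 fell in both genotypes (log2 -1.29 and -0.89 in wild type, and -1.49 and -1.15 in knockout). ICAM1, an adhesion molecule, was at 53.1, 55.4 and 55.0 CPM in wild-type DMSO, 23.9, 25.4 and 21.2 CPM in wild-type JQ1, 34.5, 38.6 and 40.2 CPM in knockout DMSO and 7.58, 8.20 and 9.75 CPM in knockout JQ1. All 4 groups of ICAM1 were separate, and it was the only gene of this arm to pass the interaction test (-0.93, SE 0.13, adjusted p = 0.0149). That call was lost without the third knockout DMSO library (-0.88, adjusted p = 0.0532) or the first or second wild-type JQ1 library (-0.92 and -0.87, adjusted p = 0.0579 and 0.0569). Of 36 further interferon-stimulated genes, 32 were tested; 12 fell and 3 rose in wild type (median -0.22), and 10 fell and 1 rose in knockout (median -0.16). The log2 fold changes in wild type and knockout were -2.01 and -2.21 for TRANK1 (adjusted p = 1.63e-09 and 6.19e-10), and -0.59 and -0.66 for DTX3L. Of 7 chromatin and repeat-silencing genes whose loss is known to raise interferon-stimulated genes, 1 rose and 1 fell in wild type and 1 rose and 2 fell in knockout.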

How the data were processed

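RNA of 12 A375 libraries was sequenced, from rRNA-depleted RNA with a directional kit, per the labels' protocols. The deposited values are the authors' estimated counts per gene symbol. Per the submitters' processing notes the tools included Trim Galore, cutadapt, kallisto and DESeq2, with build GRCh38.p10, and versions are not given. Whether counting used strand is not given in the sources used here, so overlapping genes and near-identical families (IFITM, IFIT, OAS) are uncertain. A deposited normalized table was not used. Columns were matched to samples by name and groups taken from the genotype and treatment labels; titles call the DMSO cultures untreated.

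These values were rounded to whole numbers, which the planned test on raw counts needs, then filtered with edgeR's filterByExpr over the 4 groups (21698 of 56609 symbols) and scaled with TMM (factors 0.926 to 1.06). One model with a term per group was fitted over all 12 libraries with edgeR's quasi-likelihood test (edgeR 4.0.16, limma 3.58.1, R 4.3.3; DESeq2 1.42.0 as an alternative). The 5 contrasts were JQ1 in each genotype, knockout in each treatment and their interaction, with Benjamini-Hochberg adjustment over all tested genes and a threshold of 0.05. The SE is the absolute log2 fold change over the square root of F. Fold changes used a prior count of 0.125. Code was tested on simulated data with 200 changed genes.

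The members and lists were chosen with earlier results of these data known. Values in every library are given for the 8 members with the smallest adjusted p and the 4 with the largest fold change per contrast, and up to 4 genes per other list and contrast are named. One gene of the upstream and further lists is not reported here and was left out of their counts. Promoter sequences are from RefSeq, build GRCh38.p14. Alternatives were other scalings, DESeq2, no filter, only the groups compared, a replicate block and each library left out.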

Additional observations from a re-analysis of the deposited data

Results flagged for a closer look

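IFI16 and IFITM1 were higher in knockout than in wild type in every DMSO library and lower in every JQ1 library. Of all tested genes, 14.8% lay wholly higher in knockout in DMSO and 12.4% wholly lower under JQ1. The share with both was not computed. For IFI16 the knockout difference was 0.21 in DMSO and -0.17 under JQ1 on the log2 scale, so that the responses differed by -0.38 (SE 0.11). The interaction test did not pass (edgeR's quasi-likelihood test, Benjamini-Hochberg adjusted p = 0.297). Nor did the difference of IFI16 under JQ1 (adjusted p = 0.226). The DMSO difference of IFI16 did not pass (adjusted p = 0.132), and passed without the third knockout JQ1 library (0.00707) and with only the groups compared (0.0124). For IFITM1 the differences were 0.32 (adjusted p = 0.233) and -0.74 (adjusted p = 0.0878), and neither passed. Its responses differed by -1.06 (SE 0.27, adjusted p = 0.227). IFITM1 had 9 to 138 counts per library.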

How the results depend on the processing

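The JQ1 counts stayed within 1.5 times of 30 (wild type) and 32 (knockout) under the 18 alternatives, with 28 to 31 and 29 to 32 members on leaving out each library in turn. Of all tested genes, 25.4% to 38% and 28.3% to 33.6% were called on leaving out each library. In all 18 alternatives 26 of the 30 and 27 of the 32 calls remained. No member's difference that was called in the main fit or in the alternative changed direction. Differences called in neither were not checked for direction. For knockout against wild type in DMSO the count of 5 became 8 with only the groups compared and 3 to 8 with a library left out. Of all tested genes, 12.7% and 4.83% to 11.9% were called in these fits. Under JQ1 the count of 11 became 2 with only the groups compared and 6 to 10 with a library left out. The shares of all tested genes were 4.66% and 5.41% to 10.5%. For the interaction the count was 0 on leaving out each library. It was 1 with no filter on low counts (IFI16, -0.40, edgeR adjusted p = 0.0473), where 0.557% of all tested genes passed. Library totals alone gave 2 higher and 28 lower members in wild type and 2 and 29 in knockout. Members with under 30 counts per library, such as IFITM1 and BST2 in knockout JQ1, are limited by depth.

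With a replicate block the counts were 30 and 31 for JQ1, 4 and 8 for knockout, and 0 for the interaction. In the same order, 31.3%, 32.9%, 6.85%, 7.23% and 0.0968% of all tested genes were called. The block took the adjusted p past 0.05 for ISG15 with JQ1 in knockout (0.0614), HERC5 in knockout DMSO (0.0775), USP18 (0.0616), IFIT1 (0.0731) and SP100 (0.0670) in knockout under JQ1, and, among other genes named, TLR3 in knockout DMSO (0.0542). The labels do not say what a replicate number shares, and same-numbered libraries did not deviate together (correlations -0.24 to 0.19; in 2 of 4 comparisons 1 of 3 pairs correlated best with its own number, and in the others 0 of 3).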
